A study of Mus musculus with 6 samples.

Results

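Kinesins are motor proteins that walk along microtubules, or take them apart, at the cost of ATP. The genes described here are the protein-coding rows of the deposited count table named Kif, Kifc or Klc followed by a digit, 45 of 27372 genes. They split into 11 mitotic motors, 21 transport motors with their light chains, and 13 other members. In the deposited annotation 40 members carry the Pfam kinesin motor domain. The other 5 are the light chains Klc1 to Klc4, which bind cargo and have no motor, and Kif1bp, a kinesin-binding protein that is no motor itself.

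In dividing cells, mitotic kinesins build the spindle, move chromosomes and finish cytokinesis, and their transcripts belong to the group that peaks in late cell cycle. Transport kinesins carry vesicles, mitochondria, RNA and ciliary cargo, and several of them are best known from axons. In neural progenitors both classes are at work, since these cells divide, carry a primary cilium and give rise to neurons and glia.

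Mouse neural stem cells of postnatal day 7 were kept as free-floating cultures in DMEM/F12 with B27, EGF and bFGF, and RNA was taken on culture day 7. The 6 libraries comprise 3 labelled as Sirt6 knockout (a conditional knockout in the design text) and 3 wild-type controls, all from the same proliferation medium. Sirt6 encodes a nuclear deacylase that acts on histones, and the comparison asks how its loss alters expression in these cells. The sources used here do not give the Cre driver, the strain or the number of animals behind each library. The p-values thus cover only the spread among these 6 libraries, part of which may be technical.

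Totals ranged from 17198852 to 18297275 counts, and levels are given in CPM, a count over its library's scaled total, where 1 CPM stands for 16.7 to 18.6 counts. Sirt6 itself had counts of 474, 492 and 442 in labelled knockout 1, 2 and 3, against 380, 293 and 260 in control 1, 2 and 3, so its direction goes against the labels, and no difference given here is read as a direction of Sirt6 loss. Gene counts span all exons, and the sources used here do not give the deleted ones. The summed level of 4 Y-linked genes was 0.755, 0.120 and 0 CPM in labelled knockout 1, 2 and 3, against 67.5, 234 and 0 CPM in control 1, 2 and 3, and control 1 and 2 therefore stand apart from the other libraries. The summed level of 8 neural stem cell markers (Nes, Sox2, Vim and others) ran from 9255 to 11395 CPM in the knockout-labelled libraries and from 9053 to 11397 CPM in the controls. That of the 4 microglia markers measured was at most 0.516 CPM and that of the 4 endothelial and mural markers at most 1.49 CPM. Neuronal, astrocyte and oligodendrocyte markers were present, and their levels stand beside the results they touch.

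The promoters of some members are shown because the mitotic motors and Kifc1 and Kifc5b varied together over the libraries, and Kif21a, with the smallest edgeR p-value of all members without a replicate block, is shown beside them. Each line gives 120 bases just before the gene's start in RefSeq (GRCm38.p6) or in the deposited table, whichever lies farther upstream, 5′ to 3′ along the gene's strand. Capitals mark the CCAAT box, or its reverse complement ATTGG, and the cell-cycle homology element TTTGAA or TTTAAA, or the reverse complement TTCAAA. A match is a description of the letters, not evidence of binding.

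Kif11, chr19:37376262-37376381, plus strand: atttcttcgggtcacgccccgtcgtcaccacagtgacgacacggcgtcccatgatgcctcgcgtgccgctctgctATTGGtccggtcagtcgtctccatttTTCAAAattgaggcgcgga

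Kif18b, chr11:102925125-102925244, minus strand: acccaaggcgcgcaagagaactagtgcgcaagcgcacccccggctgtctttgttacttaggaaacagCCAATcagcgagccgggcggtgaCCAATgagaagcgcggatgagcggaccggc

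Kifc1, chr17:33890662-33890781, minus strand: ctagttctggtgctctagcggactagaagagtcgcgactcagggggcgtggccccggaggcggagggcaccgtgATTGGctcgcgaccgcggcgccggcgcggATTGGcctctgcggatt

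Kifc5b, chr17:26916971-26917090, plus strand: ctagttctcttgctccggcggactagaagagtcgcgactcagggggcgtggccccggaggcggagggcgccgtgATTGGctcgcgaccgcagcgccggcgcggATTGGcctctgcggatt

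Kif21a, chr15:91049952-91050071, minus strand: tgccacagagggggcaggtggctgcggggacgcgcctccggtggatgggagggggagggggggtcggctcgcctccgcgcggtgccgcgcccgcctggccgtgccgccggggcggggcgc

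Kif11 holds an ATTGG followed by a TTCAAA, Kif18b holds 2 CCAAT boxes, and Kif21a holds neither motif in this window. The windows of Kifc1 and Kifc5b are the same at 114 of 120 bases, including both ATTGG boxes. Of the 45 members, 34 matched a promoter in the RefSeq table by symbol. In the 250 bases before the start, on either strand and with overlapping matches counted, 5 of 10 mitotic promoters held TTTGAA or TTTAAA, as did 0 of 14 transport promoters and 25.5% of all 27025 promoters. CCAAT was found in 6 of 10 mitotic promoters, 5 of 14 transport promoters and 34.5% of all promoters. The mitotic motors Kif18a and Kif20b, whose promoters are not printed, held none of these motifs in the 250 bases. The promoters of the other members held CCAAT in 6 of 10, as many as the mitotic ones, and TTTGAA or TTTAAA in 2 of 10.

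Per length of annotated exon, Kif1a, which carries synaptic vesicle precursors in neurons, had the highest level of all members. Levels between genes are given as CPM per kilobase of annotated exon, as mean ± SD over the 3 knockout-labelled libraries and then over the 3 controls. Kif1a stood at 85.3 ± 10.2 and 88.4 ± 8.95 CPM per kilobase. The kinesin-1 light chain Klc1 followed at 72.3 ± 5.30 and 69.9 ± 2.49, and Kif1b, a carrier of mitochondria and vesicles, at 64.1 ± 7.86 and 55.2 ± 8.78. The mean ± SD ranges of Kif1a and Klc1, and those of Klc1 and Kif1b, overlap in the knockout-labelled libraries and not in the controls.

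Kif3a, a subunit of the kinesin-2 motor of cilia, stood at 49.2 ± 2.52 and 45.1 ± 2.98 CPM per kilobase. Kif21b, a neuronal motor that also limits microtubule growth, stood at 37.7 ± 4.79 and 40.2 ± 2.16, and Kif5b, the widely expressed kinesin-1 heavy chain, at 36.3 ± 2.06 and 35.5 ± 0.812, ranges that overlap in the knockout-labelled libraries only. Mean levels over all 6 libraries ran from 2.50 to 13.1 CPM per kilobase in the mitotic motors, with Kif22 the highest and Kif14 the lowest. Among the transport members they ran from 0.756 (Klc3) to 86.9 (Kif1a). The lowest levels of all belonged to Kif28, Kif6, Kif26b, Kif27, Kif9 and Kif26a, each under 0.5 CPM per kilobase. Of these, Kif6, Kif9 and Kif27 are linked to cilia.

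**Figure D1:**
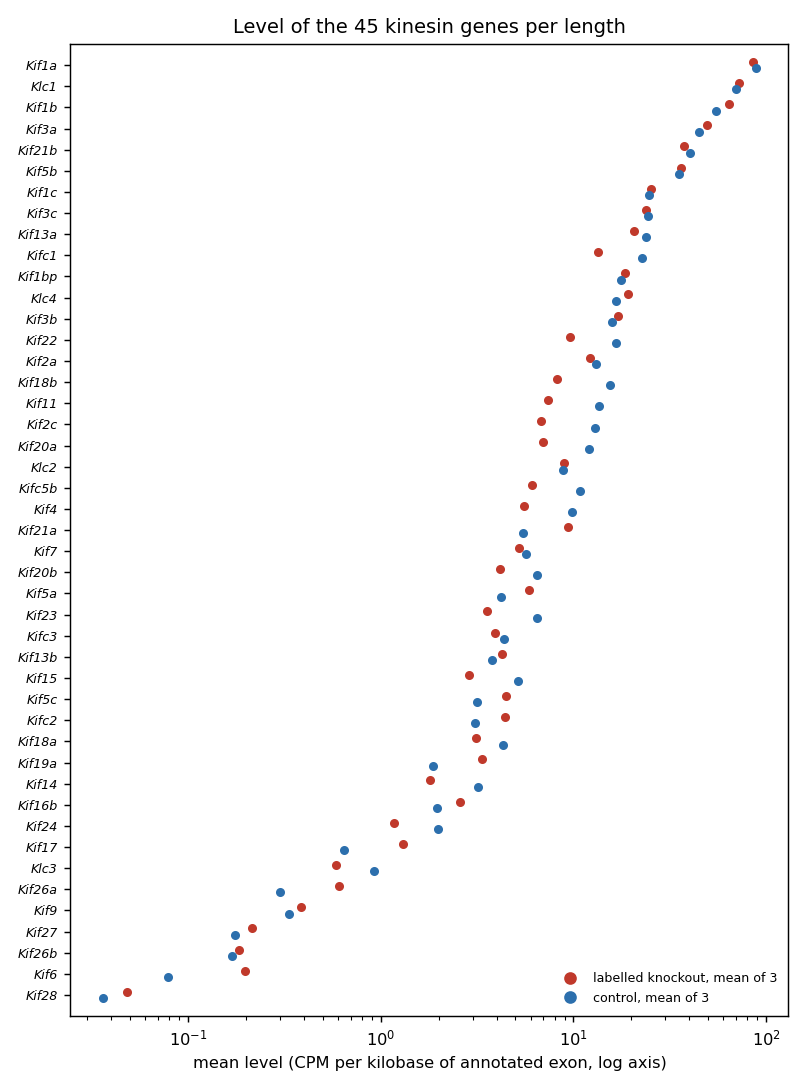
Mean level of the 45 kinesin genes in CPM per kilobase of annotated exon (log axis), red for the 3 knockout-labelled libraries and blue for the 3 controls. Kif1a, Klc1 and Kif1b lead, and the mitotic motors sit in the middle of the range with red left of blue.

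The mitotic motors were lower in the knockout-labelled libraries on average, all 11 of them. Their median log2 fold change was -0.84 and ranged from -0.94 (Kif2c) to -0.48 (Kif18a), beside a median of 6.6e-05 over the 15087 genes tested. The mean log2 CPM of the class was 4.79 ± 0.88 in the knockout-labelled libraries and 5.67 ± 0.68 in the controls (SD, n = 3 each), and edgeR's quasi-likelihood test called 0 of the 11. Over all 44 members tested it called 0 as well, and 5 had an unadjusted p under 0.05 (4 higher, 1 lower). DESeq2 and limma-voom also called 0 members, with 7 and 6 at an unadjusted p under 0.05, beside 643 and 545 of all 15087 genes. Of all genes tested, 0% were called by edgeR, 1.98% were higher and 1.5% lower at an unadjusted p under 0.05, and DESeq2 called 0.0464%. In bulk RNA, fewer dividing cells and less of these transcripts per cell cannot be told apart.

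Kif11 encodes the motor that pushes the spindle poles apart. It lies on chromosome 19, 37376403 to 37421859, plus strand (mm10, as deposited). Its level was 44.6, 95.4 and 25.7 CPM in labelled knockout 1, 2 and 3, against 106, 131 and 68.3 CPM in control 1, 2 and 3. Labelled knockout 1 and 3 were below all controls, but labelled knockout 2 lay above control 3, so the groups overlap. The log2 fold change was -0.88 ± 0.47 (SE; edgeR, adjusted p = 0.998).

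Kif15, which helps keep the spindle bipolar beside Kif11, had 28.1, 49.8 and 17.2 CPM in the knockout-labelled libraries, against 45.3, 96.3 and 28.96 CPM in the controls. Kif2c encodes a depolymerase that corrects faulty attachments at the centromere. Its level was 18.9, 52.7 and 16.8 CPM in the knockout-labelled libraries, against 51.03, 88.4 and 30.7 CPM in the controls, the largest difference of the class at a log2 fold change of -0.94 ± 0.53 (SE; edgeR, adjusted p = 0.998). In both genes control 2 was highest and labelled knockout 3 lowest.

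Of the 3 kinesin-8 members, the mitotic motors Kif18a and Kif18b were lower and Kif19a, described with the other members, was higher. Kif18b, a motor of astral microtubules, had 19.9, 45.8 and 22.4 CPM in the knockout-labelled libraries, against 47.9, 86.04 and 31.9 CPM in the controls. Kif18a, which damps chromosome movements at the metaphase plate, had 22.2, 50.2 and 19.4 CPM in the knockout-labelled libraries, against 36.4, 60.8 and 30.3 CPM in the controls. Their log2 fold changes were -0.91 ± 0.44 and -0.48 ± 0.42 (SE), and the difference between them was not tested. Kif18b was lowest in labelled knockout 1, the only mitotic motor not lowest in labelled knockout 3.

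The chromokinesins bind chromosome arms. Kif22, which pushes the arms towards the plate, had 30.6, 83.99 and 26.4 CPM in the knockout-labelled libraries, against 68.4, 125 and 50.8 CPM in the controls. Kif4, which also works with Prc1 on the central spindle, had 22.1, 54.1 and 15.4 CPM in the knockout-labelled libraries, against 48.7, 81.1 and 33.4 CPM in the controls. In both, labelled knockout 1 and 3 stood apart below the other 4 libraries. Kif4 shares 832 exon bases with Pdzd11 on the opposite strand, and without the strand setting of the counting, reads there cannot be assigned.

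The motors of cytokinesis followed the same order of libraries. Kif20a, which brings the chromosomal passenger complex to the central spindle, had 16.5, 57.7 and 15.8 CPM in the knockout-labelled libraries, against 46.8, 76.5 and 33.7 CPM in the controls. Kif23, the motor of the centralspindlin complex, had 21.9, 49.8 and 12.6 CPM in the knockout-labelled libraries, against 45.8, 80.01 and 27.8 CPM in the controls. In both, labelled knockout 1 and 3 were below all controls. Kif20b, which acts late in cytokinesis, had 20.9, 51.6 and 14.04 CPM in the knockout-labelled libraries, against 38.5, 72.04 and 24.4 CPM in the controls. Kif14, which works with citron kinase at the midbody, had 12.4, 33.8 and 9.86 CPM in the knockout-labelled libraries, against 28.3, 51.6 and 19.2 CPM in the controls. All 4 were lowest in labelled knockout 3 and highest in control 2. Kif20a shares 1271 exon bases with the more abundant Cdc23 on the opposite strand, so its values carry that doubt.

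**Figure D2:**
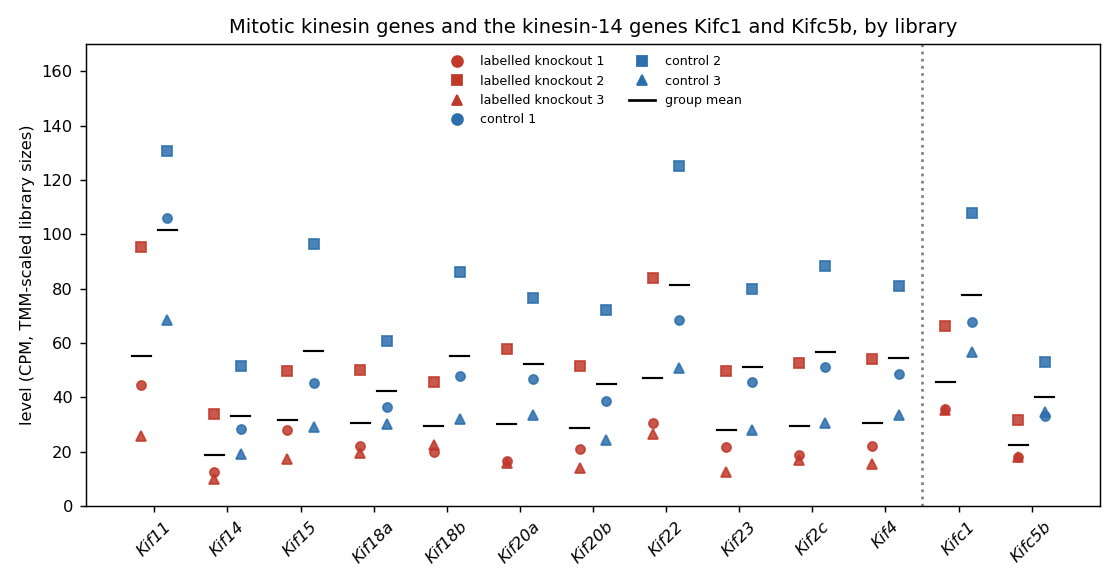
Level in CPM of the 11 mitotic motors and, right of the dotted line, Kifc1 and Kifc5b in each of the 6 libraries, red for labelled knockout and blue for control, with black bars for group means. In each mitotic motor labelled knockout 1 and 3 lie below all controls and labelled knockout 2 lies above control 3.

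The same libraries were high or low in gene after gene. This order was read off the values of these motors, so the shares of all genes beside it are a description and no test. The 11 varied together and are not separate observations. Labelled knockout 1 and 3 lay below all controls, with labelled knockout 2 above control 3, in 11 of 11 mitotic motors, against 6.81% of all genes tested. Control 2 was highest in 11 of 11, against 24.5% of all genes, and labelled knockout 3 lowest in 10, against 20.9%. Both held in 10 of 11, against 9.73% of all genes. The highest library held 3.14 to 6.37 times the level of the lowest. Within the knockout-labelled group alone the ratio was 2.30 to 3.97, and within the controls 1.91 to 3.33.

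Titles number the libraries 1 to 3 in both groups, and libraries with the same number deviated together over all genes. The titles do not say that equal numbers mark a pair. Counts by pair and fits with the replicate number as a block rest on that reading. Compared within numbers, the mitotic motors were lower in the knockout-labelled library of each of the 3 pairs in 11 of 11, against 18% of all genes tested. The pair differences in the mean log2 CPM of the class were -1.11, -0.61 and -0.93 in pairs 1, 2 and 3. When the replicate number entered edgeR as a block, 11 of 11 had an unadjusted p under 0.05, from 2.72e-04 to 0.00496, where 6.77% of all genes were lower at that level. Adjusted over all genes, the p-values were 0.0896 to 0.183, and 0 members and 0% of all genes were called. Over all members this fit gave an unadjusted p under 0.05 to 14 that were lower and 5 that were higher, the second beside 5.69% of all genes.

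DESeq2 with the same block called 10 of the 11 mitotic motors lower. It called 2.36% of genes lower, counted over the 13332 to which it gave an adjusted p. The motor it left out was Kif18a, at -0.54 ± 0.18 (log2, SE; DESeq2 adjusted p = 0.0793). Kif23 had the smallest adjusted p, 3.7e-05, at -0.96 ± 0.18, and Kif11 the largest log2 fold change, -1.04 ± 0.21 (SE; DESeq2 adjusted p = 1.73e-04). Most of these calls were lost when pair 1 or pair 3 was left out. Without pair 1 DESeq2 called 0 members, without pair 2 it called 9 mitotic motors and without pair 3 it called 3, Kif18b, Kif22 and Kif2c. Calls over all genes fell as well, from 463 with all pairs to 344 without pair 2 and 130 without pair 3. They were fewest without pair 1, so the loss was not confined to the mitotic motors. The median log2 fold change of the class in those fits was -0.79, -1.08 and -0.87, against -0.92 with all pairs.

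Single libraries also moved the class. The median log2 fold change was -0.39 without control 2 and -0.52 without labelled knockout 3, against -1.52 without labelled knockout 2. In that last fit 11 of 11 had an unadjusted p under 0.05 by edgeR and 0 of them were called. Over all genes it gave such a p to 1025 of 15551, against 524 of 15087 with all libraries. When the summed Y-linked CPM entered the fit as covariate, the median was -0.14, 8 of 11 were lower (not Kif15, Kif18a and Kif20b) and the range was -0.49 (lowest) to 0.14 (highest). That level is near 0 in all knockout-labelled libraries and in control 3, so this fit rests on control 1 and 2. Its part in the difference cannot be told apart from other features of those controls.

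Most partners of the mitotic motors were lower too. Of 18 partner genes tested, 17 were lower, beside 7542 of all 15087 genes. Their median log2 fold change was -0.84, and edgeR called 0. DESeq2 with the block called 16, all lower, where it called 2.36% of the genes with an adjusted p lower. Mki67, which codes for the proliferation antigen Ki-67 that coats mitotic chromosomes, had 209, 497 and 134 CPM in labelled knockout 1, 2 and 3, against 441, 849 and 284 CPM in control 1, 2 and 3. Cenpe, a kinetochore kinesin whose name falls outside the rule, had 32.7, 95.2 and 29.1 CPM in the knockout-labelled libraries, against 89.2, 143 and 53.6 CPM in the controls. Racgap1, the partner of Kif23 in centralspindlin, had 78.2, 157 and 55.4 CPM in the knockout-labelled libraries, against 162, 288 and 107 CPM in the controls. Each of these 3 was highest in control 2 and lowest in labelled knockout 3. The exceptions among the 18 were Ckap5, a microtubule polymerase, at 0.023 ± 0.16, and Numa1, which anchors spindle poles, at -0.10 ± 0.14 (log2, SE), neither called by any of these fits.

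The transport motors as a class were slightly higher. Of the 21, all tested, 15 were higher and 6 lower, with a median log2 fold change of 0.10, and 14 lay within 0.25 of 0. Their mean log2 CPM per library was 6.19 ± 0.18 in the knockout-labelled libraries and 6.04 ± 0.15 in the controls (SD, n = 3 each), and the group means differed by less than the SDs. Within pairs 1, 2 and 3 the knockout-labelled library was higher by 0.27, 0.11 and 0.074 on that scale. The summed transport level was 4095, 3832 and 4404 CPM in labelled knockout 1, 2 and 3, against 3939, 3679 and 4167 CPM in control 1, 2 and 3. That of the mitotic motors was 258, 625 and 196 CPM in labelled knockout 1, 2 and 3, against 563, 949 and 379.6 CPM in control 1, 2 and 3.

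The mitotic mean minus the transport mean, on the same log2 scale, was -1.83, -0.21 and -2.15 in labelled knockout 1, 2 and 3, against -0.45, 0.51 and -1.15 in control 1, 2 and 3. The groups overlap through labelled knockout 2. The difference between group means was -1.03, beside within-group SDs of 1.04 and 0.83, and the differences within pairs 1, 2 and 3 were -1.38, -0.71 and -1.001. It was -0.60 without control 2, -0.65 without labelled knockout 3, -1.63 without labelled knockout 2 and -0.35 with the Y-linked covariate.

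**Figure D3:**
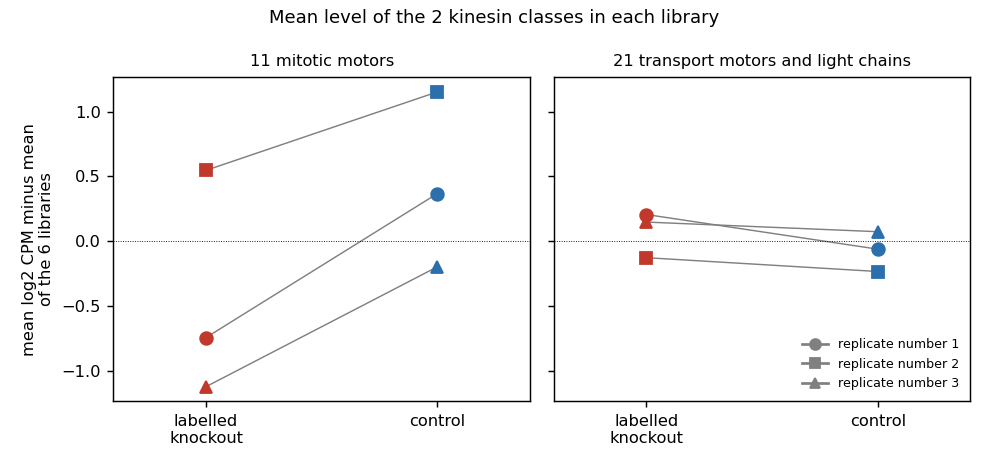
Mean log2 CPM of the 11 mitotic motors (left) and the 21 transport motors and light chains (right) in each library, after subtraction of the mean over all 6 libraries, with lines joining libraries of the same replicate number. Each line of the mitotic class runs lower on the labelled knockout side, and the points of the transport class stay between -0.23 and 0.21.

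Among the kinesin-1 heavy chains, Kif5b had 296, 302 and 271 CPM in the knockout-labelled libraries, against 288, 287 and 276 CPM in the controls, with a log2 fold change of 0.031 ± 0.12 (SE). The neuronal heavy chains Kif5a and Kif5c followed another order of libraries. Kif5a had 58.2, 21.7 and 43.9 CPM in labelled knockout 1, 2 and 3, against 22.6, 26.2 and 39.2 CPM in control 1, 2 and 3. Kif5c had 48.02, 16.2 and 31.6 CPM in the knockout-labelled libraries, against 24.2, 19.98 and 23.8 CPM in the controls. In both, labelled knockout 1 was highest and labelled knockout 2 lowest, so the groups overlap. Their log2 fold changes were 0.49 ± 0.37 and 0.50 ± 0.36 (SE; edgeR, adjusted p = 0.998 for both).

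The levels of neuronal markers also varied, in part in another order of libraries. Dcx, a microtubule protein of migrating neuroblasts, had 134, 21.4 and 52.95 CPM in the knockout-labelled libraries, against 42.3, 12.8 and 14.1 CPM in the controls, also highest in labelled knockout 1. The summed level of all 10 neuroblast and neuron markers was 599, 384 and 481 CPM in labelled knockout 1, 2 and 3, against 347, 273 and 307 CPM in control 1, 2 and 3, and the groups do not overlap. Labelled knockout 2, the lowest library in Kif5a and Kif5c, was above every control in this sum and above control 2 and 3 in Dcx. Of the 9 markers tested, 7 were higher and 2 lower. Their part in the Kif5a and Kif5c levels was not tested.

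The light chains Klc1, Klc2 and Klc4 had log2 fold changes of 0.050 ± 0.12, 0.017 ± 0.15 and 0.21 ± 0.26 (SE). Klc3, the least abundant light chain, had 2.32, 1.85 and 0.516 CPM in the knockout-labelled libraries, against 2.70, 2.15 and 2.46 CPM in the controls. It was lower in each pair at -0.64 ± 0.52 (log2, SE; edgeR, adjusted p = 0.998), from at most 47 counts a library, and it shares 744 exon bases with the more abundant Ercc2 on the opposite strand.

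The kinesin-2 subunits Kif3a, Kif3b and Kif3c, motors of ciliary and vesicle transport, had log2 fold changes of 0.13 ± 0.11, 0.10 ± 0.15 and -0.030 ± 0.17 (SE). Kif17, which forms its own kinesin-2 dimer and carries receptors in mouse dendrites, stood apart from them. Kif17 had 6.37, 4.78 and 6.82 CPM in labelled knockout 1, 2 and 3, against 3.11, 1.67 and 4.12 CPM in control 1, 2 and 3. Every knockout-labelled library lay above every control. The counts behind these levels were 118, 80 and 119 in labelled knockout 1, 2 and 3, against 54, 31 and 72 in control 1, 2 and 3. Its log2 fold change was 1.01 ± 0.38 (SE; edgeR, unadjusted p = 0.0301, adjusted p = 0.998), and DESeq2 with the block gave an adjusted p of 0.0946. Kif17 shares 74 exon bases with Sh2d5 on the same strand.

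Of the kinesin-3 carriers, Kif1a had 708, 784 and 897 CPM in the knockout-labelled libraries, against 775, 778 and 921 CPM in the controls. Kif1b had 1056, 1043 and 1289 CPM in the knockout-labelled libraries, against 997, 806 and 1112 CPM in the controls. Their log2 fold changes were -0.051 ± 0.17 and 0.22 ± 0.19 (SE), within the spread of the libraries. Kif1c, a carrier of vesicles in many cell types, stood at 0.043 ± 0.28, and the endosomal motors Kif13a, Kif13b and Kif16b at -0.19 ± 0.20, 0.18 ± 0.14 and 0.39 ± 0.26 (log2, SE). Kif13a was highest in control 2, at 253 CPM, with all other libraries between 154 and 181 CPM.

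Kif21a had the smallest p-value of all members by edgeR without the block, and with the block 11 members had smaller ones. It encodes a kinesin-4 motor that restrains microtubule growth at the cell cortex and is mutated in a congenital eye movement disorder in humans, and it lies on chromosome 15, 90933276 to 91049948, minus strand (mm10, as deposited). Kif21a had 61.9, 66.5 and 52.9 CPM in labelled knockout 1, 2 and 3, against 40.7, 28.9 and 37.5 CPM in control 1, 2 and 3. Every knockout-labelled library lay above every control. Group means were 60.4 ± 6.91 CPM in the knockout-labelled libraries and 35.7 ± 6.08 CPM in the controls (SD, n = 3 each). The fitted log2 fold change was 0.76 ± 0.17 (SE; edgeR, unadjusted p = 0.00254, adjusted p = 0.998). In the authors' deposited table its adjusted p was 0.286, the smallest of the 44 members that have one. DESeq2 with the block called it higher at 0.76 ± 0.20 (SE; adjusted p = 0.00614), where 1.12% of the genes with an adjusted p were called higher. Left without any one of the 3 pairs, that fit no longer called it, and it called fewer of all genes as well. Kif21b, its paralog, had 525, 436 and 415 CPM in the knockout-labelled libraries, against 502, 508 and 459.9 CPM in the controls and a log2 fold change of -0.095 ± 0.15 (SE).

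Map1b, a neuronal microtubule-associated protein gene, had 180.3, 115 and 153 CPM in the knockout-labelled libraries, against 105, 73.4 and 93.1 CPM in the controls. Gfap, the intermediate filament of astrocytes, had 443, 493 and 1189.6 CPM in the knockout-labelled libraries, against 212, 51.4 and 261 CPM in the controls. Like Kif21a and Kif17, both had every knockout-labelled library above every control, as had 4.88% of all genes tested. This held in 3 of the 9 neuroblast and neuron markers tested and in 1 of 6 astrocyte markers, Gfap. All 6 astrocyte markers were higher. EdgeR called 0 in either list, and DESeq2 with the block called 3 higher in each, beside 1.12% of the genes with an adjusted p. The summed level of all 6 astrocyte markers was 2205, 2291 and 5799 CPM in labelled knockout 1, 2 and 3, against 1642, 891 and 3857 CPM in control 1, 2 and 3, with overlap.

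Of 7 oligodendrocyte markers tested, 6 were higher and 1 lower, with a median log2 fold change of 1.34. EdgeR called 0, and DESeq2 with the block called 4 higher and 1, Olig2, lower, beside 1.12% and 2.36% of the genes with an adjusted p. Mbp, a myelin protein gene, had 95.2, 39.5 and 78.2 CPM in the knockout-labelled libraries, against 18.7, 4.20 and 11.5 CPM in the controls, with no overlap. The summed level of all 8 markers was 1548, 1394 and 1569.7 CPM in labelled knockout 1, 2 and 3, against 1293, 1388 and 1279 CPM in control 1, 2 and 3, with labelled knockout 2 just above control 2. The part of these neuronal and glial markers in the Kif21a and Kif17 values was not tested.

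EdgeR and DESeq2 called no partner gene of the transport motors. Of 21 tested, 15 were higher and 6 lower, with a median log2 fold change of 0.093. EdgeR called 0 of them, 1 had an unadjusted p under 0.05, and DESeq2 with the block called 0. That 1 gene was Fez1, an adaptor of kinesin-1, at 0.32 ± 0.13 (log2, SE; edgeR, unadjusted p = 0.0463, adjusted p = 0.998). Within the pairs, 9 of the 21 were higher in all 3, against 18% of all genes tested, and edgeR with the block gave 4 that were higher an unadjusted p under 0.05, against 5.69%. All knockout-labelled libraries lay above all controls in 3 of the 21, against 4.88% of all genes. Kif1bp, a member by its name, is also on this list, at 0.068 ± 0.20. For the opposing motor, cytoplasmic dynein and its activator dynactin, 12 of 20 genes were higher and 8 lower, with a median of 0.045. EdgeR and DESeq2 with the block called 0 of these, and 0 had an unadjusted p under 0.05 by edgeR without the block.

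**Figure D4:**
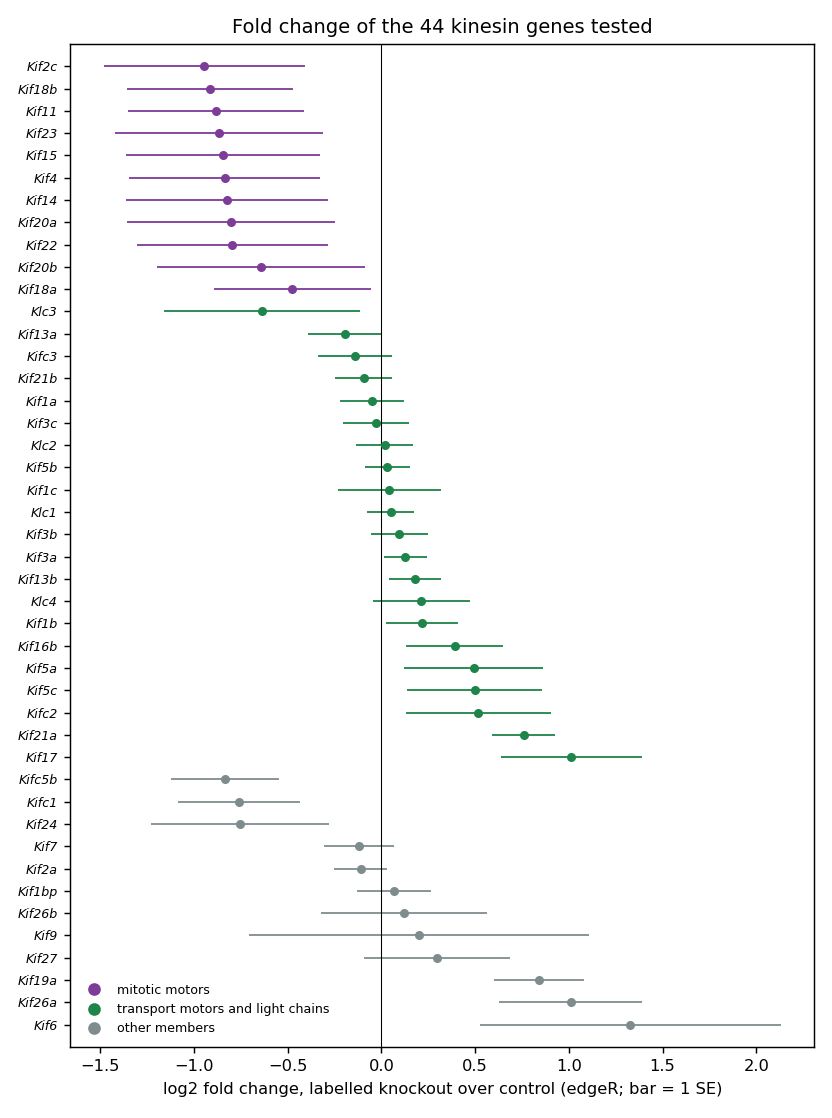
Log2 fold change, labelled knockout over control, with 1 SE for the 44 kinesin genes tested by edgeR, coloured by class. The mitotic motors lie between -0.94 and -0.48, most transport motors lie near 0, and Kifc5b, Kifc1 and Kif24 of the other members lie beside the mitotic motors.

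Outside both classes, 13 members remained, of which 12 passed the filter on low counts and Kif28 did not. Of the 12, 7 were higher and 5 lower. Kifc1, a kinesin-14 that clusters spindle poles and so is mitotic although it is not among the 11, had 35.8, 66.2 and 35.5 CPM in labelled knockout 1, 2 and 3, against 67.8, 108 and 56.8 CPM in control 1, 2 and 3. Its close copy Kifc5b had 18.2, 31.5 and 17.99 CPM in labelled knockout 1, 2 and 3, against 33.2, 52.9 and 34.6 CPM in control 1, 2 and 3. In Kifc5b every knockout-labelled library lay below every control, as in 3.73% of all genes tested. The log2 fold changes were -0.76 ± 0.33 and -0.83 ± 0.29 (SE; edgeR, unadjusted p = 0.0528 and 0.0228, adjusted p = 0.998 for both). Labelled knockout 1 and 3 lay below all controls in 13 of 44 members, these 2 and the 11 mitotic motors, against 12.3% of all genes tested. DESeq2 with the block called both lower, with adjusted p of 8.66e-05 and 1.41e-04. Without pair 1 it called neither, without pair 2 it called both, and without pair 3 it called Kifc1. Fewer of all genes were called in each of these fits too.

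Reads of the 2 copies are uncertain, since 36.6% of the 50-base stretches in annotated Kifc5b transcripts also occur in Kifc1 and 38.6% of those in Kifc1 occur in Kifc5b. No such stretch was shared by Kif5a and Kif5c, by Kif1a and Kif1b, or by Kif21a and Kif21b.

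Kif24, which limits the growth of primary cilia in cycling cells, had 8.63, 13.7 and 5.96 CPM in the knockout-labelled libraries, against 15.1, 24.98 and 7.61 CPM in the controls, a log2 fold change of -0.75 ± 0.48 (SE; edgeR, adjusted p = 0.998). Kif24, Kifc1 and Kifc5b were the members outside the 11 that were highest in control 2 and lowest in labelled knockout 3, a pattern that 0 of 21 transport members had. Kif2a, a depolymerase that prunes neurites and the paralog of Kif2c, had 79.3, 76.6 and 77.7 CPM in the knockout-labelled libraries, against 78.2, 100.2 and 73.6 CPM in the controls and a log2 fold change of -0.11 ± 0.14 (SE), and it shares 1229 exon bases with Dimt1 on the opposite strand. Kif7, a regulator of Hedgehog signalling at the ciliary tip, stood at -0.12 ± 0.19.

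Kif19a, a kinesin-8 that shortens motile cilia in mice, ran against its mitotic relatives. Kif19a had 11.5, 17.1 and 12.3 CPM in labelled knockout 1, 2 and 3, against 8.28, 6.35 and 8.19 CPM in control 1, 2 and 3. Every knockout-labelled library lay above every control. Over the 44 members tested this held in 3, against 4.88% of all genes tested. The opposite held in 1 of the 44, against 3.73% of all genes. Its log2 fold change was 0.84 ± 0.24 (SE; edgeR, unadjusted p = 0.00936, adjusted p = 0.998), and DESeq2 with the block gave an adjusted p of 0.107. Foxj1, the master factor of motile cilia, had 23.5, 26.6 and 44.5 CPM in the knockout-labelled libraries, against 35.2, 14.7 and 61.1 CPM in the controls, with overlap. Kif9, another gene of motile cilia, had 0.917, 1.32 and 2.75 CPM in the knockout-labelled libraries, against 0.575, 0.269 and 3.49 CPM in the controls. Both were lowest in control 2 and highest in control 3. Kif19a was also lowest in control 2, but highest in labelled knockout 2. The summed level of the 5 ependymal and motile cilia markers measured, most of it Foxj1, was 24.5, 28.8 and 46.2 CPM in labelled knockout 1, 2 and 3, against 36.3, 15.8 and 63.8 CPM in control 1, 2 and 3. Its part in the Kif19a values was not tested.

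Kif26a, a kinesin without motor activity that acts in mouse enteric neuron growth, had 5.50, 4.60 and 2.46 CPM in labelled knockout 1, 2 and 3, against 1.73, 1.99 and 2.52 CPM in control 1, 2 and 3. Labelled knockout 1 and 2 lay above all controls and labelled knockout 3 lay between them. Its log2 fold change was 1.01 ± 0.38 (SE; edgeR, unadjusted p = 0.0320, adjusted p = 0.998), from 30 to 102 counts a library.

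The remaining members were not called by any fit. Kifc2, a neuronal kinesin-14, had 14.7, 12.02 and 25.3 CPM in the knockout-labelled libraries, against 9.61, 8.56 and 18.2 CPM in the controls, higher in each of the 3 pairs, with a log2 fold change of 0.52 ± 0.39 (SE). Higher levels in all 3 pairs were found in 9 of 21 transport members, against 18% of all genes tested. Kifc3, a kinesin-14 of cell junctions, stood at -0.14 ± 0.20 (log2, SE). The log2 fold changes of Kif6, Kif27 and Kif26b were 1.33 ± 0.80, 0.30 ± 0.39 and 0.12 ± 0.44 (SE), from levels of at most 3.43 CPM. Kif28 had counts of 3, 3 and 3 in labelled knockout 1, 2 and 3, against 0, 4 and 3 in control 1, 2 and 3, too few for a fold change.

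**Figure D5:**
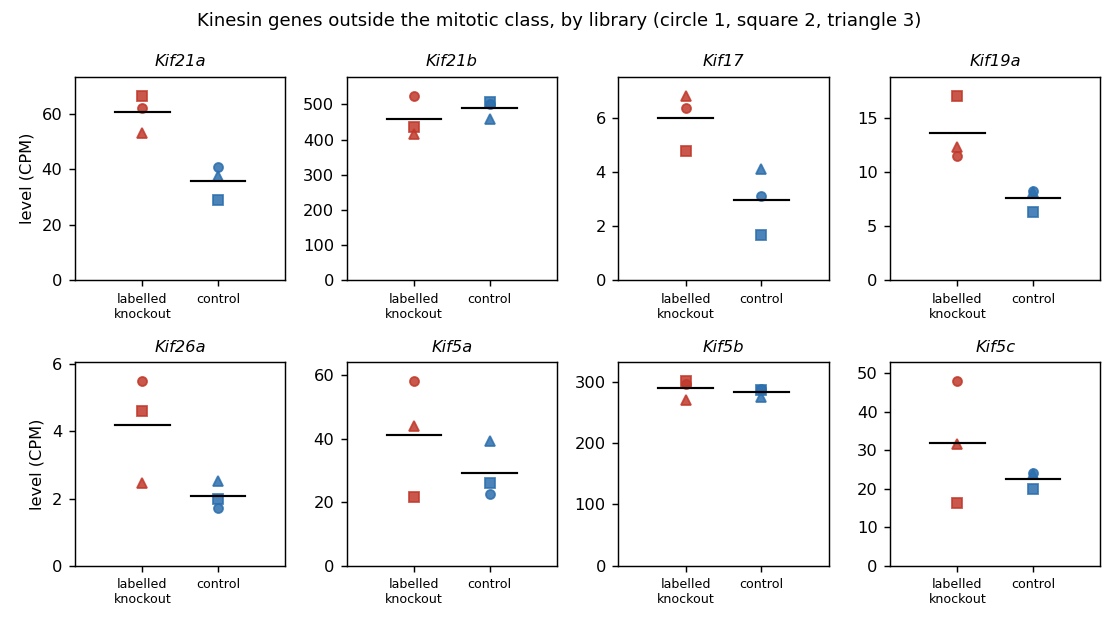
Level in CPM of 8 members outside the mitotic class in each library, red for labelled knockout (left in each panel) and blue for control, with black bars for group means. Kif21a, Kif17 and Kif19a have separate groups, and Kif5a and Kif5c are highest in labelled knockout 1 and lowest in labelled knockout 2.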

How the data were processed

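Raw whole-number counts per gene for 6 libraries were deposited, with the authors' own mean of scaled counts (a signal), fold change (ratio), log2 ratio, p-value and adjusted p-value, per the file headers. The authors' log2 ratio is control over knockout. The submitters' processing notes list HISAT2 2.1.0, Bowtie2 2.2.3 and mm10 and give them no roles. The sources used here do not give the counting tool or its strand setting.

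Genes were tested with edgeR 4.0.16 (R 4.3.3): TMM, filterByExpr (minimum count 10, minimum total 15), robust glmQLFit and glmQLFTest on group, with Benjamini-Hochberg adjustment over 15087 genes at 0.05. SEs came from the F statistic, CPM rests on totals scaled by TMM, and log2 CPM adds a prior count of 2. Class means take the log2 CPM of tested members. Exon lengths and overlaps came from GENCODE M21, where all 45 members were found and 40 had the deposited coordinates. EdgeR and DESeq2, with and without the block, and limma-voom were tested on simulated data. Those data held independent genes and no replicate effect, so they cannot show how the fits with the block behave on these libraries.

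Alternatives were RLE, total-count scaling, no filter, 1 CPM in 3 libraries, DESeq2 1.42.0 on the same genes, limma-voom (limma 3.58.1), the replicate block, DESeq2 with the block, a covariate made of the summed CPM of Ddx3y, Kdm5d, Eif2s3y and Uty, and each library left out. DESeq2 with the block without each pair, and the orders of libraries that were counted, were chosen after seeing the data. Members and lists were chosen with earlier results of these data known.

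The rule for naming took the 11 mitotic motors, Kifc1, members of at least 1 CPM with an unadjusted edgeR p under 0.05, those of at least 5 CPM in the kinesin-1, light chain, kinesin-2 and kinesin-3 families, and otherwise the most abundant of a family. Kif21b, Klc3, Kif24, Kif2a, Kif7, Kifc2, Kifc3, Kif1bp, the rarest members and the partner and marker genes were named after their values were seen. The replicate numbers come from the titles. Deviations from the group means, in log2 CPM, gave correlations of 0.43, 0.35 and 0.51 within the numbers 1, 2 and 3. They were taken over genes, which are not independent. Their mean, 0.43, was the highest of only 6 possible pairings, beside 0.095 for the next, so the numbers were taken to pair the libraries. The titles themselves state no pairing. Any 2 libraries differed beyond sampling noise (chi-square per degree of freedom of at least 22.2). By that measure labelled knockout 1 and 3 were nearest the control of their own number (22.2 and 39.7). Labelled knockout 2 was nearer control 1 (33.9) than control 2 (65.9).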

Additional observations from a re-analysis of the deposited data

How the results depend on the processing

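The 0 genes called by edgeR became 1 without a filter, 7 with DESeq2 and 463 with DESeq2 and the replicate block, and 0 to 2 when each library was left out. The 0 kinesin members called became 13 with DESeq2 and the block, and 0, 11 and 4 of these remained without pair 1, 2 and 3. Calls over all genes also fell in each of those fits. Members called were 0 under every other alternative, leaving out a library included. Over the leave-one-out fits the median log2 fold change ranged from -1.52 to -0.39 for the mitotic motors and from 0.040 to 0.21 for the transport motors, and the difference between the class means from -1.63 to -0.60. With other scalings and filters the mitotic median stayed between -0.86 and -0.83, and taking every member outside the 11 as transport gave 0.096 and -1.03. With edgeR and the replicate block the mitotic median was -0.91, 0 members were called, and 1880 genes had an unadjusted p under 0.05, against 524 without the block.

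Of 33 named members, 11 changed sign under some setting. With the Y-linked covariate these were Kif15 (0.060), Kif18a (0.023), Kif20b (0.14), Kif9 (-0.65), Kif13a (0.14), Kif1c (-0.28), Kif3b (-0.052), Klc2 (-0.020) and Klc4 (-0.075). When each library was left out, the log2 fold change ranged from -0.14 to 0.042 for Kif1a, -0.17 to 0.33 for Kif1c, -0.13 to 0.10 for Kif3c, -0.053 to 0.15 for Klc2, -0.37 to 1.97 for Kif9, -0.31 to 0.054 for Kif13a and -0.0050 to 0.21 for Kif3b. The causes were not tested. At 16.7 to 18.6 counts per CPM, members near 1 CPM also carry sizeable counting error.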
